A study of Mus musculus with 13 samples.

Results

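The hairpin mir-21a (mmu-mir-21a) and the mature arms cut from it, miR-21a-5p and miR-21a-3p, were followed in small RNA-seq libraries of thymic iNKT cells. They were found by name, as 1 of the 1127 hairpins and 2 of the 1297 mature sequences listed in the count tables. iNKT cells are innate-like T cells that respond to glycolipids on CD1d. They were sorted as live TCRβ+ tetramer+ thymocytes after depletion of CD24+ cells from mice aged 21 to 25 days, with 1 library per mouse. The 6 WT mice were C57BL/6. The 7 *Tet2/3* DKO mice were *Tet2*-/- *Tet3*flx/flx CD4 cre, so that *Tet2* was absent from the whole animal and *Tet3* was deleted from the stage at which thymocytes switch on CD4. WT mice are not described as carrying cre, so an effect of cre and of the deleted genes cannot be told apart. The subsets of iNKT cells were not separated, and in such bulk libraries fewer cells of a type and less RNA per cell cannot be told apart.

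MicroRNAs are cut in the nucleus by DROSHA from a primary transcript into a hairpin, then in the cytoplasm by DICER into a short duplex. ARGONAUTE keeps one strand of the duplex and uses its seed, bases 2 to 8 from the 5′ end, to find mRNAs. miR-21 is among the miRNAs that T cells raise when they are activated and as they become effector cells. Its best known targets are brakes on signalling and growth, such as *Pdcd4* and the Sprouty genes. The 5p strand is the one usually loaded, and the 3p strand is its passenger. miR-21 is also abundant in myeloid cells, fibroblasts and many epithelia.

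Both arms of miR-21a are shown with the related sequences miR-21c and miR-21b, because reads of near-identical miRNAs can be exchanged in counting. Capitals mark the seed, and all sequences come from RefSeq on GRCm38.p6, the mm10 assembly that the labels name.
miR-21a-5p: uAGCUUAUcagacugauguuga
miR-21a-3p: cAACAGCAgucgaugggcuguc
miR-21c: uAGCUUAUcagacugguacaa
miR-21b: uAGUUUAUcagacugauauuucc

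The hairpin is 92 bases long and lies at chr11:86584067-86584158 on the minus strand. The 5p arm is at chr11:86584120-86584141 and the 3p arm at chr11:86584082-86584103. In the GENCODE annotation the hairpin falls within an exon of the protein-coding transcript Vmp1-201, from 86583865 to 86585451 on the same strand, in a part annotated as UTR. A fragment of *Vmp1* mRNA from this stretch has the same letters as the miR-21a transcript, and the counts do not separate them. No other miRNA gene lies close by, since the nearest, *Mir301*, is 528846 bases away. miR-21c shares the seed of miR-21a-5p, and no other mature sequence in the RefSeq table does, while miR-21a-3p shares its seed with none. Compared with miR-21a-5p and counting from its 5′ end, miR-21b differs within the seed (C4U) and miR-21c first at A16G. The related sequences were close to absent. In the mature table miR-21b had 2 counts and miR-21c 3 counts over all 13 libraries, and in the hairpin table mir-21b and mir-21c had 3 counts each. The hairpin mir-590, from the wider family, had 2 counts. The RefSeq table held no entry for mir-590, so its seed was not compared, and its mature counts were not read. The values below are therefore those of miR-21a with next to no counts assigned to the relatives that were counted.

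Hairpin totals per library ranged from 469117 to 1110226 counts for WT and from 728653 to 1910526 for *Tet2/3* DKO. Mature totals ranged from 1110852 to 2582057 for WT and from 1837631 to 4361963 for *Tet2/3* DKO. A level is the CPM of a library after TMM scaling in edgeR. The genotype comparison used the quasi-likelihood test of that package over the 350 hairpins and 401 mature sequences with enough counts, with Benjamini-Hochberg adjustment. A log2 fold change is positive where *Tet2/3* DKO is higher. It is relative to the other miRNAs and not an amount per cell. With library size only, the median log2 fold change of all tested hairpins moved up by 0.34 and that of mature sequences by 0.25, and with upper-quartile scaling they moved down by 0.24 and by 0.16. The share of hairpin calls that were higher was 54.5% with TMM, 72.9% with library size only and 40.4% with upper-quartile scaling, and for mature sequences it was 50.7%, 64.8% and 40.3%.

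The mir-21a hairpin was higher in every *Tet2/3* DKO mouse than in every WT mouse. Its level was 6403 CPM in the lowest WT library, 7803 in the median and 8544 in the highest. In *Tet2/3* DKO it was 11064 CPM in the lowest library, 12664 in the median and 15233 in the highest. The groups did not overlap, with a gap between the highest WT mouse, replicate 6, and the lowest *Tet2/3* DKO mouse, replicate 5. The means were 7661 ± 763 CPM (SD, n = 6) and 13077 ± 1738 CPM (SD, n = 7). This is a 1.71-fold rise, or 0.77 ± 0.104 (SE) on the log2 scale, and by edgeR's quasi-likelihood test the adjusted p was 5.77e-06. Such calls were common. Of the tested hairpins 59.7% were called in either direction and 32.6% were called higher, and 32.0% had genotypes that did not overlap, with *Tet2/3* DKO on top for 18.0%. By size of its log2 fold change mir-21a was at position 74 of 350 from the highest, and by p-value at position 34.

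**Figure D1:**
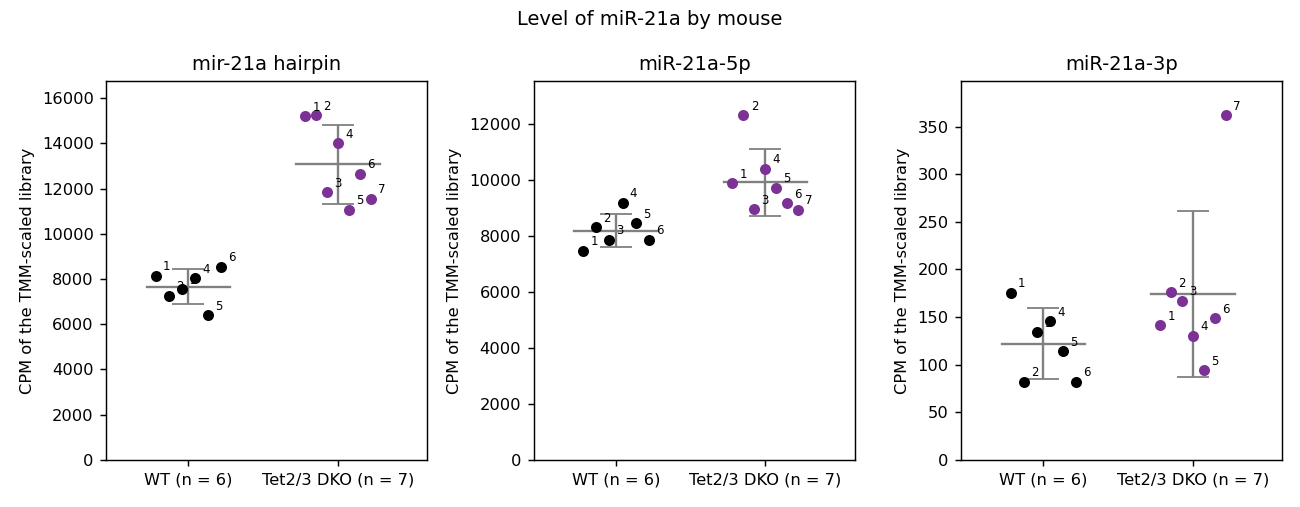
Level of the mir-21a hairpin, miR-21a-5p and miR-21a-3p in each library (y axes, CPM of the TMM-scaled library, starting at 0) with black points for the 6 WT mice and purple points for the 7 *Tet2/3* DKO mice, numbered by replicate, with the mean and SD in grey. The hairpin values are separate (at most 8544 CPM in WT and at least 11064 in *Tet2/3* DKO), those of both arms overlap, and replicate 7 stands at 362 CPM for miR-21a-3p.

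Depth differed between genotypes, and for hairpins only the shallowest *Tet2/3* DKO library was within the WT range. This was replicate 7, with 728653 hairpin counts and 11548 CPM of mir-21a. The 4 WT libraries that were deeper than it had between 6403 and 8544 CPM. For mature counts, *Tet2/3* DKO replicates 3 and 7 were at depths within the WT range, with 8956 and 8930 CPM of miR-21a-5p. These lay between the values of WT libraries of like depth (from 7870 to 9179). The part of depth in the difference of the hairpin and in that of miR-21a-5p was not tested, and so few libraries cannot show it. The hairpin count itself was from 3536 to 7565 in WT libraries and from 9777 to 29610 in *Tet2/3* DKO libraries, so that counting error was at most 1.68% of a value and well below the spread between mice. No molecular identifiers were counted, and the true technical error can be larger. The log2 fold change of the hairpin was 1.11 with library size only and 0.53 with upper-quartile scaling, past the threshold in both. Relative to the median of all hairpins it was between 0.75 and 0.76, a quantity that scaling hardly moves by construction and that says nothing of stability.

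The functional arm, miR-21a-5p, differed much less than the hairpin. It was 7468 CPM in the lowest WT library, 8092 in the median and 9179 in the highest. In *Tet2/3* DKO it was 8930 CPM in the lowest library, 9723 in the median and 12300 in the highest. WT replicate 4 was above 3 of the *Tet2/3* DKO mice, so the groups overlapped, but 4 of 7 *Tet2/3* DKO mice were above all WT mice and 5 of 6 WT mice were below all *Tet2/3* DKO mice. The means were 8191 ± 598 CPM (SD, n = 6) and 9908 ± 1185 CPM (SD, n = 7), and the 1.21-fold difference (log2 fold change 0.27, SE 0.10) was past the threshold, with an adjusted p of 0.0239 in edgeR's quasi-likelihood test. Of all tested mature sequences 55.6% were called, 28.2% as higher, and 27.2% had genotypes that did not overlap, and miR-21a-5p was at position 159 of 401 by log2 fold change.

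This call is a narrow one. It was lost with upper-quartile scaling (0.11, with an adjusted p of 0.375 in edgeR's quasi-likelihood test) and in 12 of the 13 fits that left out a mouse, all but the one without *Tet2/3* DKO replicate 6, with values from 0.18 to 0.27. When features and scaling factors of all mice were kept, 10 of those 13 fits passed, and the call was lost without WT replicate 1 (0.25), WT replicate 3 (0.26) or *Tet2/3* DKO replicate 2 (0.22). Relative to the median of all mature sequences the difference was between 0.28 and 0.29, which scaling again leaves nearly fixed by construction.

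miR-21a-5p was also among the steadiest miRNAs between mice. Its SD of log2 CPM was 0.10 in WT and 0.16 in *Tet2/3* DKO, where the median over all tested mature sequences was 0.38 in both genotypes. In WT 2.49% of tested sequences had a smaller SD, and in *Tet2/3* DKO 5.74%. Among hairpins, mir-21a had an SD of 0.15 in WT and 0.19 in *Tet2/3* DKO, with smaller values in 11.7% and 15.4% of hairpins. Abundant miRNAs also have little counting error, and its part in this order was not tested.

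The passenger arm, miR-21a-3p, was far scarcer than the 5p arm and varied more between mice. In WT it was 82.0 CPM in the lowest library, 124 in the median and 176 in the highest, from 107 to 328 counts. In *Tet2/3* DKO it was 94.3 CPM in the lowest library, 149 in the median and 362 in the highest, from 369 to 806 counts. The groups overlapped over most of their range, with *Tet2/3* DKO replicate 7 far above the rest and 2 of 7 *Tet2/3* DKO mice above all WT mice. The log2 fold change of 0.51 (SE 0.269) was not past the threshold, with an adjusted p of 0.118 in edgeR's quasi-likelihood test. Without *Tet2/3* DKO replicate 7 it was 0.14, and with the features and scaling factors of all mice 0.23. The size of the difference thus rested largely on that library.

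**Figure D2:**
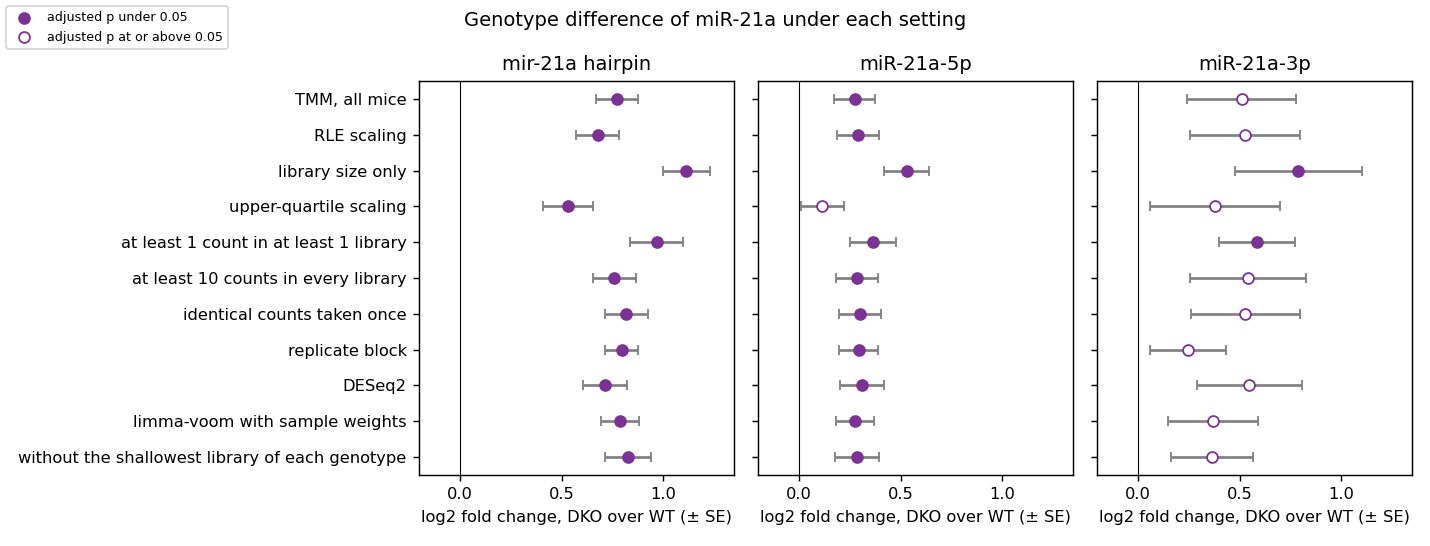
Log2 fold change (x axis, *Tet2/3* DKO over WT, bars are SE) of the mir-21a hairpin, miR-21a-5p and miR-21a-3p under 11 ways of scaling, filtering, testing and choosing libraries (rows), filled where the adjusted p was under 0.05. The hairpin was filled in all 11, from 0.53 to 1.11, miR-21a-5p in all but upper-quartile scaling (0.11), and miR-21a-3p with library size only (0.79) and with the loosest filter (0.59). Fits that left out a single mouse are not shown. With features and scaling computed again, miR-21a-5p passed in 1 of those 13.

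Whether the hairpin and the mature arm differed to the same extent was asked within each library, where depth and scaling of the library cancel. The hairpin count was 0.397 ± 0.0555 of the 5p count in WT (SD, n = 6), from 0.335 to 0.483. In *Tet2/3* DKO it was 0.578 ± 0.0876 (SD, n = 7), from 0.487 to 0.701. Every *Tet2/3* DKO mouse was above every WT mouse, although WT replicate 6 (0.483) and *Tet2/3* DKO replicate 5 (0.487) nearly met. The difference between mean log2 ratios was 0.54 (exact two-sided permutation test over 1716 divisions of the mice, p = 0.000583, the smallest p this design allows). Over the 288 hairpins whose most abundant arm was tested, the same exact permutation test gave mir-21a an adjusted p of 0.0140. Of the 288, 17.7% were called in this ratio, 10.8% as higher, and mir-21a was at position 31 from the highest. The share of the 288 whose genotypes did not overlap in this ratio was not counted. The median difference over the 288 was 0.03, with 167 above 0. All hairpin counts of a library divided by all its mature counts gave 0.439 ± 0.0252 in WT and 0.421 ± 0.0180 in *Tet2/3* DKO. Reads were sequenced to 50 bases, shorter than the hairpin. The ratio was at most 0.701, so not every 5p read was also counted on the hairpin. Beyond that, the counts leave unknown whether a read stands in both tables or in 1 of them. The ratio thus compares the deposited counts and is not a measure of processing, and a hairpin count is not one of precursors.

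**Figure D3:**
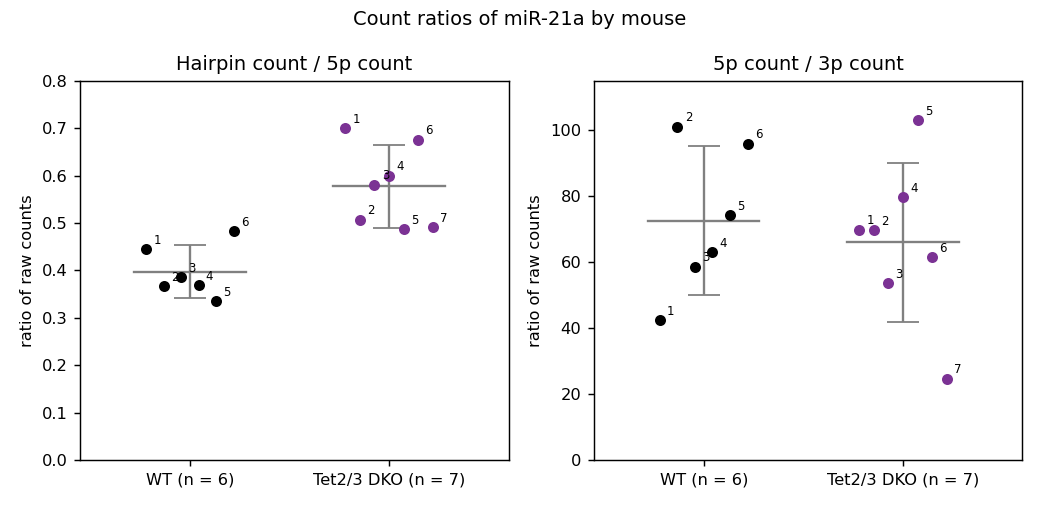
Hairpin count over 5p count (left) and 5p count over 3p count (right) of miR-21a in each library (y axes, ratios of raw counts, starting at 0), black for WT and purple for *Tet2/3* DKO, numbered by replicate, with the mean and SD in grey. The first ratio is at most 0.483 in WT and at least 0.487 in *Tet2/3* DKO, and the second overlaps throughout, with replicate 7 of *Tet2/3* DKO lowest at 24.7.

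Both genotypes carried miR-21a almost wholly as the 5p arm. There were 72.6 ± 22.6 counts of 5p for each count of 3p in WT (SD, n = 6), from 42.5 in replicate 1 to 101 in replicate 2. In *Tet2/3* DKO there were 66.0 ± 24.1 (SD, n = 7), from 24.7 in replicate 7 to 103 in replicate 5. The genotypes overlapped over nearly the whole range. The difference of mean log2 ratios was -0.18 (exact two-sided permutation test, p = 0.615), and it turned to 0.040 without *Tet2/3* DKO replicate 7 (exact permutation p = 0.879). The SD of the log2 ratio was 0.47 in WT and 0.65 in *Tet2/3* DKO, larger than the difference, so a small change would not have been detectable. Among the 98 miRNAs with both arms tested, 16.3% were called different in arm ratio, and miR-21a was at position 24 by 5p dominance.

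As a share of both arms, 3p made up 1.48% ± 0.488 in WT (SD, n = 6) and 1.76% ± 0.978 in *Tet2/3* DKO (SD, n = 7). Replicate 7 of *Tet2/3* DKO had 3.89% (95% Wilson interval 3.64% to 4.17%), and without it the *Tet2/3* DKO mean was 1.41% ± 0.299 (SD, n = 6). WT replicate 1 was the next highest, with 2.30% (2.00% to 2.65%), and *Tet2/3* DKO replicate 5 was the lowest, with 0.961% (0.868% to 1.06%). These intervals cover counting error only, and the highest and lowest do not meet. The libraries with the largest 3p share in each genotype were also the shallowest, and the part of depth in this was not tested.

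Rank within a library does not depend on scaling. Among all hairpins mir-21a ranked from 29 to 34 in WT libraries (median 31.5) and from 16 to 22 in *Tet2/3* DKO libraries (median 21), where rank 1 has the most counts. No library of one genotype fell within the range of the other. By level, genotypes did not overlap for 32.0% of tested hairpins and 27.2% of tested mature sequences. The same share was not counted for ranks. The mean rank was 11.2 places nearer the top in *Tet2/3* DKO (31.5 ± 1.64 in WT and 20.3 ± 1.98 in *Tet2/3* DKO, exact two-sided permutation p = 0.000583). Mature miR-21a-5p ranked 23 in 5 WT libraries and 25 in the other, and from 17 to 22 in *Tet2/3* DKO libraries, with no overlap. Its mean rank was 3.62 places nearer the top in *Tet2/3* DKO (23.3 ± 0.816 and 19.7 ± 2.29, exact two-sided permutation p = 0.00175). The 4 exact tests of ratios and ranks had Benjamini-Hochberg adjusted values of 0.00117 (hairpin to 5p ratio), 0.00117 (hairpin rank), 0.00233 (5p rank) and 0.615 (arm ratio). The adjustment was over these 4 tests and not over all features. miR-21a-3p ranked from 132 to 167 in WT and from 104 to 160 in *Tet2/3* DKO.

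**Figure D4:**
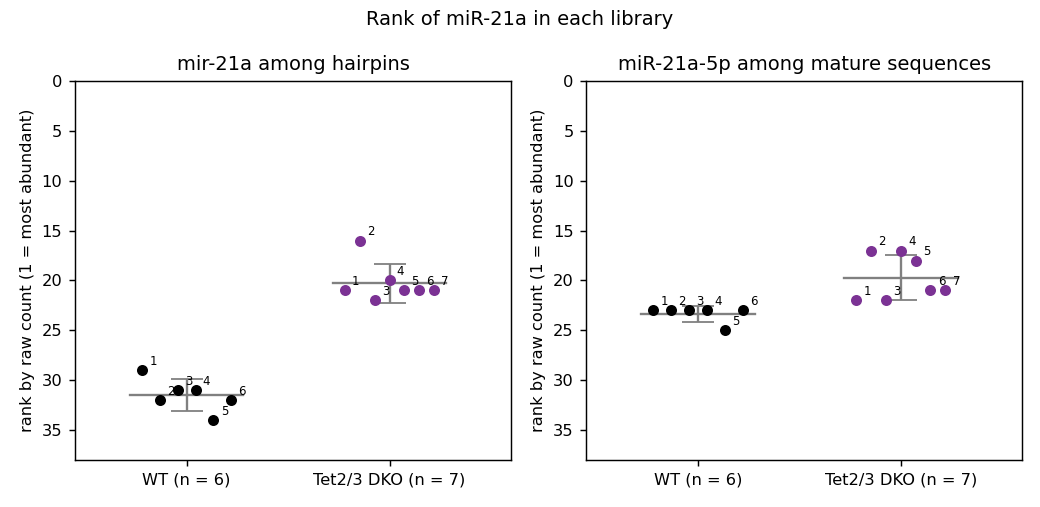
Rank of mir-21a among all hairpins (left) and of miR-21a-5p among all mature sequences (right) in each library (y axes, rank by raw count, 1 at the top), black for WT and purple for *Tet2/3* DKO, with the mean and SD in grey. The hairpin is at 29 to 34 in WT and 16 to 22 in *Tet2/3* DKO, and miR-21a-5p at 23 to 25 and 17 to 22.

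A place in the ranking also moves when the neighbours do. miR-21a-5p held 0.747% ± 0.0297 of mature counts in WT (SD, n = 6) and 1.08% ± 0.202 in *Tet2/3* DKO (SD, n = 7). By mean share in WT it was at position 23, below miR-26b-5p (1.29% ± 0.229) and miR-25-3p (0.862% ± 0.126), both of which exceeded it in 6 of 6 libraries. Below it were miR-3074-5p (0.696% ± 0.0795) and miR-342-3p (0.644% ± 0.123), each of which exceeded it in 1 of 6 libraries. In *Tet2/3* DKO it was at position 19 and was not set apart from its neighbours. miR-150-5p (1.26% ± 0.262) exceeded it in 5 of 7 libraries, miR-17-5p (1.13% ± 0.179) in 4, miR-93-5p (1.04% ± 0.160) in 3 and miR-25-3p (0.986% ± 0.130) in 2. Of the WT neighbours, miR-26b-5p fell from 14248 to 5999 CPM (log2 fold change -1.25, with an adjusted p of 5.68e-08 in edgeR's quasi-likelihood test), and miR-3074-5p and miR-342-3p also fell (-0.86 and -0.68), so that neighbours moved as well. For miR-25-3p the log2 fold change was -0.03, not past the threshold. Of the *Tet2/3* DKO neighbours, miR-150-5p fell (-1.18), but miR-17-5p (0.89) and miR-93-5p (0.54) rose. Adapter ligation favours some sequences over others, so an order between miRNAs is an order of counts.

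The miRNAs whose levels moved most like miR-21a-5p from mouse to mouse were sought among 106 mature sequences with a mean of at least 1000 counts. Genotype means were subtracted from log2 CPM over the 13 libraries. The highest were miR-140-5p (Pearson's r = 0.853, Spearman's rho = 0.703), miR-28a-5p (r = 0.648, rho = 0.725) and miR-29b-3p (r = 0.643, rho = 0.637). The lowest were miR-99b-5p (r = -0.556, rho = -0.505), miR-423-5p (r = -0.542, rho = -0.148) and miR-125a-5p (r = -0.541, rho = -0.352). Without the libraries farthest from the median of miR-21a-5p, *Tet2/3* DKO replicate 2 and WT replicate 4, r was 0.499, 0.532 and 0.515 for the first group and -0.262, 0.077 and -0.130 for the second. These are the extremes of 106 values that share libraries and scaling factors, so they carry no p-value. The first group kept a positive r, but which sequences stood at either end of the order depended on those libraries. Without them the highest values were instead those of the let-7 family, let-7c-5p (0.845, from 0.283 over all libraries), let-7b-5p (0.806, from 0.073) and let-7g-5p (0.762, from 0.263). Between genotypes, miR-140-5p, miR-28a-5p and miR-29b-3p, were lower in *Tet2/3* DKO, with log2 fold changes of -0.83, -0.30 and -1.24.

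Other miRNAs that T cells are known to raise on activation were set beside miR-21a as a list. Of 17 such hairpins besides mir-21a, 16 were tested, 8 were higher, 1 was lower and 7 did not pass the threshold, where 32.6% of all tested hairpins were higher, 27.1% lower and 59.7% called in all. The share called in either direction was thus near that of all hairpins. Their median log2 fold change was 0.67, against 0.02 for all tested hairpins, and 4 of the 16 were above mir-21a. miR-155, a regulator of effector T cells, had 158 ± 70.3 CPM of its hairpin in WT (SD, n = 6) and 256 ± 66.1 in *Tet2/3* DKO (SD, n = 7), and its hairpin rose (0.68). The hairpins of mir-17 (0.74), a member of the growth-promoting miR-17-92 cluster, and mir-132 (0.67) rose as well. The higher hairpins also include mir-18a and mir-20a of that cluster, and mir-212, which shares a transcript with mir-132. The count thus holds fewer separate loci than hairpins. The lower member was mir-92a-1 (-0.47), from the same cluster as mir-17. The mir-146a hairpin, from a miRNA that restrains NF-κB signalling, was 7438 ± 1378 CPM in WT and 5933 ± 2547 in *Tet2/3* DKO (-0.33, with an adjusted p of 0.285 in edgeR's quasi-likelihood test).

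The more abundant mature arms of that list gave a like count. All 17 were tested, with 8 higher, 2 lower (miR-221-3p and miR-92a-3p) and 7 not past the threshold, where 28.2% of all tested mature sequences were higher, 27.4% lower and 55.6% called in all. Here too the share called in either direction was near that of all sequences. The higher arms again include several cut from shared transcripts. The median was 0.46 against -0.01 for all mature sequences. Of these 17, 11 had a larger log2 fold change than miR-21a-5p. miR-17-5p rose from 5652 ± 685 to 10469 ± 1604 CPM (0.89) and miR-132-3p from 121 ± 28.8 to 259 ± 69.1 CPM (1.1 on the log2 scale). For miR-155-5p (0.46, adjusted p = 0.129) and miR-146a-5p (0.0031) the threshold was not passed in edgeR's quasi-likelihood test.

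A second list held miRNAs that fall when T cells are activated. Of its 19 hairpins, all tested, 10 were lower, 3 were higher and 6 did not pass the threshold. The lower ones include the near-identical pairs mir-26a-1 and mir-26a-2 (-0.54 and -0.53) and mir-29b-1 and mir-29b-2 (-1.04 and -1.05), so the counts hold fewer separate miRNAs than hairpins. For comparison, 27.1% of all tested hairpins were lower, 32.6% higher and 59.7% called in all, so a call was in itself common. The median log2 fold change was -0.52. The mir-150 hairpin, abundant in resting lymphocytes, fell from 20634 ± 4152 CPM in WT to 8488 ± 1956 in *Tet2/3* DKO (-1.28), and mir-26b (-0.77) and mir-29a (-0.95) fell too. The higher ones were mir-181a-1 (0.88) and mir-181a-2 (0.89), which tune TCR sensitivity in thymocytes and whose reads can hardly be told apart, and mir-101b (0.36). Of 15 mature arms 14 were tested, with 8 lower and 6 not past the threshold in edgeR's quasi-likelihood test. Of all tested mature sequences 27.4% were lower, 28.2% higher and 55.6% called in all. The share of arms called in either direction was thus near that of all sequences. The highest log2 fold change of the 14 arms was -0.00064. For miR-181a-5p the log2 fold change was -0.03. The log2 ratio of mir-181a-2 to miR-181a-5p counts was 0.97 higher in *Tet2/3* DKO. In the exact permutation test over 288 hairpins its adjusted p was 0.0305, at position 4 from the highest. As for mir-21a, this ratio compares the deposited counts and is not a measure of processing. The lists carry no test of their own, since they were written with earlier results of these data known.

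**Figure D5:**
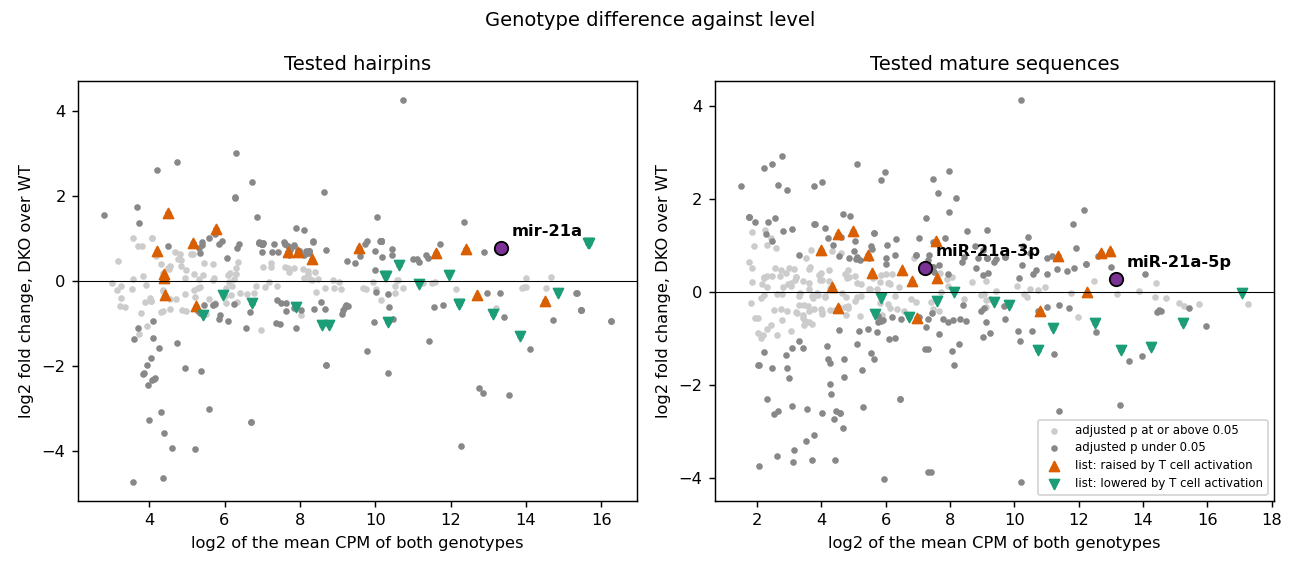
Log2 fold change (y axis, *Tet2/3* DKO over WT) against the log2 of the mean CPM (x axis) for 350 tested hairpins and 401 tested mature sequences, dark grey where the adjusted p was under 0.05. mir-21a (0.77), miR-21a-5p (0.27) and miR-21a-3p (0.51) are in purple, and the lists of miRNAs raised (upward triangles) or lowered (downward triangles) by T cell activation lie mostly above and below 0.

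Since miR-21 is abundant in other cells that a sort can hold, miRNAs that mark those cells were read from the hairpin table. No miRNA marks iNKT cells alone. The T cell and blood cell hairpins mir-181a-1, mir-181a-2, mir-150 and mir-142a together held from 175948 to 207615 CPM in WT and from 165127 to 225269 in *Tet2/3* DKO, with the near-identical mir-181a copies counted in full each. The sums overlapped, but the members moved in opposite directions. Both mir-181a hairpins rose (0.88 and 0.89), while mir-150 (-1.28) and mir-142a (-0.93) fell. The myeloid marker mir-223 was from 20.1 to 310 CPM in WT and from 0 to 19.2 in *Tet2/3* DKO (log2 fold change -3.0, with an adjusted p of 0.00249 in edgeR's quasi-likelihood test), the opposite direction to mir-21a. Markers of red cells (4 of 4 with counts) had summed levels from 803 to 2242 CPM in WT and from 175 to 657 in *Tet2/3* DKO. The near-identical counts of mir-486a and mir-486b enter this sum in full each, so it overstates the level. Markers of stroma (6 of the 7 listed, all 6 with counts) had summed levels from 62.2 to 187 CPM in WT and from 9.71 to 37.9 in *Tet2/3* DKO. Here mir-199a-1, mir-199a-2 and mir-199b, with much the same counts, likewise enter in full each. The hepatocyte marker mir-122 was from 4.25 to 22.8 CPM in WT and from 0 to 2.99 in *Tet2/3* DKO. Endothelial (2 of 2) and epithelial markers (7 of 7) overlapped between genotypes, from 179 to 400 and from 601 to 810 CPM in WT and from 163 to 246 and from 589 to 704 CPM in *Tet2/3* DKO. No marker in the table was at 0 in every library. Summed levels of the myeloid, red cell, stromal and hepatocyte lists were thus lower in every *Tet2/3* DKO mouse than in every WT mouse, and their part in the level of miR-21a was not tested.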

How the data were processed

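The authors sorted thymic iNKT cells by FACS, prepared libraries with a NETFLEX small RNA kit from miRNeasy-extracted RNA, sequenced them from a single end and processed them with nf-core/smrnaseq with default parameters. They deposited raw counts per hairpin and per mature sequence, 1 column per mouse, not normalized. The aligner, the miRNA database release and the treatment of reads that match several sequences are not given in the sources used here, nor is the sorter used for each mouse. Column names gave genotype and mouse number, and 0 columns were left unused.

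From the counts, features that passed edgeR's filterByExpr (at least 10 counts, at least 15 in all) were scaled by TMM and fitted with a robust quasi-likelihood model with genotype only (edgeR 4.0.16). P-values were adjusted by Benjamini-Hochberg within each table, with a threshold of 0.05. SEs were taken from the estimate and the root of its F statistic. Log2 CPM used a prior count of 2. Ratios used counts plus 0.5, and were compared, like ranks, by exact two-sided permutation. Arms were paired with hairpins by name and by the RefSeq table. R 4.3.3, limma 3.58.1, DESeq2 1.42.0, Python 3.11.15 and scipy 1.17.1 were used, and the fit was tested on simulated data. Alternatives were other scalings, filters and tools, replicate number as a block, and leaving out mice. Leaving out mice with features and scaling factors of all mice was added after the results were seen.

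Named miRNAs were the members, sequences with their seed, neighbours by share, the 3 most and 3 least alike and members of the lists. Which list members are given with values was decided after they were seen. The members and lists were chosen with earlier results of these data known. Mice of both sexes were used, and the labels give no batch.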

Additional observations from a re-analysis of the deposited data

Results flagged for a closer look

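In 74 groups of values, each from the mice of 1 genotype, the highest or lowest mouse was compared with the rest. It stood apart in 7, where chance (about 1 in 20) gives about 3.7. The groups share mice and miRNAs, and ranks hold ties, so the chance figure is only a rough guide and no test. For miR-21a, mature miR-21a-5p ranked 25 in WT replicate 5 and 23 in the other WT libraries, and the mir-21a hairpin ranked 16 in *Tet2/3* DKO replicate 2, where the next was 20. Among other miRNAs, WT replicate 5 was lowest for miR-17-5p (12.07 log2 CPM, next 12.48), WT replicate 1 for mir-132 (6.72, next 7.58) and WT replicate 6 for mir-142a (16.28, next 16.63). WT replicate 3 was highest for mir-155 (8.24, next 7.21), and *Tet2/3* DKO replicate 2 was highest for miR-140-5p (10.47, next 10.14), the same mouse that had the most miR-21a-5p.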

How the results depend on the processing

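The rise of the mir-21a hairpin was past the threshold in 36 of 36 other fits (0.53 to 1.11, adjusted p from 6.74e-12 to 0.00128), the hairpin to 5p ratio in 17 of 17 (0.49 to 0.61) and both ranks in 16 of 16 each. For miR-21a-5p, 20 of 36 fits passed, all with the same sign (0.11 to 0.53). It was lost with upper-quartile scaling (0.11), in 12 of 13 fits without a mouse (0.18 to 0.27 over the 13), and in 3 of 13 with the features and scaling factors of all mice, a setting added after the results were seen (0.25 without WT replicate 1, 0.26 without WT replicate 3, 0.22 without *Tet2/3* DKO replicate 2, and 0.22 to 0.31 over the 13). miR-21a-3p became past the threshold with library size only (0.79), when any feature with a count was kept (0.59) and, with the features and scaling factors of all mice, without *Tet2/3* DKO replicate 5 (0.62), where leaving out a mouse gave from 0.23 to 0.64. With both computed again it was from 0.14 to 0.57. The arm ratio turned to 0.040 without *Tet2/3* DKO replicate 7 and with the replicate block, which drops that mouse, and was from -0.32 to 0.040 over the fits without a mouse. The cause was not tested for these. Over all fits the count of calls was from 179 to 288 hairpins and from 167 to 272 mature sequences.

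The labels do not say whether same-numbered mice share more than a number. The correlation of their deviations was over 0.1 in 2 of 6 pairs for hairpins and 3 of 6 for mature sequences. The same 2 of 6 pairs, replicates 5 and 6, matched their own number best for hairpins and for mature sequences. Their correlations were 0.14 and 0.34 for hairpins, and 0.34 and 0.26 for mature sequences. The other pairs did not match their own number best in both directions. Whether mice of like number shared a batch was not tested. With the replicate block the hairpin was 0.79, miR-21a-5p 0.29 and miR-21a-3p 0.25. The exact sign-flip permutation test of hairpin to 5p ratio and both ranks gave p = 0.0312, the smallest that 6 pairs allow. No call on miR-21a itself changed. Over all features, calls were 219 hairpins (209 without the block) and 227 mature sequences (223 without). Depth limits miR-21a-3p most, with counting error up to 9.67%.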
